A study of Mus musculus with 550 samples.

Results

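The 10 inflammatory target genes described here, all known targets of the transcription factor NF-kB, were followed through 7 mouse tissues after 1 dose of dimethyl fumarate (DMF), of monoethyl fumarate salts (MEF), or of both. The 10 genes are Tnf, Il1b, Cxcl1, Cxcl2, Ccl2, Ccl3, Ccl4, Nfkbia, Tnfaip3 and Icam1, out of 17097 genes that the array measured with a probe set annotated to that gene alone. All 10 were measured. Each had 1 such probe set except Tnfaip3, which had 2, of which the brighter was used.

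The animals were C57BL/6 mice, sampled 6 h or 12 h after the dose. The vehicle group received 0.8% hydroxypropyl methylcellulose, and the dosed groups received DMF at 100 mg/kg, DMF at 179.2 mg/kg, a mixture of the calcium, magnesium and zinc salts of MEF at 79.2 mg/kg, or DMF at 100 mg/kg together with MEF at 79.2 mg/kg. An untreated group, called NAIVE in the labels, was taken at 12 h only. The arrays, 550 in all, came from whole blood, brain, kidney, jejunum, spleen and a pair of lymph nodes, the mesenteric (MLN) and the inguinal (ILN), and fell into 77 groups of 3 to 8. The labels mention no inflammatory stimulus. Age and sex are not given in the sources used here.

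NF-kB is a family of dimeric transcription factors held in the cytoplasm by inhibitory IkB proteins. Signals from receptors for tumour necrosis factor, interleukin 1 or microbial products activate a kinase complex that marks IkB for destruction, and the dimers then enter the nucleus and switch on cytokines, chemokines and adhesion molecules. Nfkbia encodes the inhibitor IkB-alpha and Tnfaip3 encodes the ubiquitin-editing enzyme A20: both are induced by NF-kB and shut it off again, so their transcripts are widely read as markers of pathway activity. DMF, a drug for multiple sclerosis and psoriasis, is known for activating the NRF2 antioxidant response and for restraining NF-kB signalling in cultured cells.

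The promoters of the 2 feedback inhibitors, of the adhesion molecule Icam1 and of the 2 neutrophil chemokines are shown. Nfkbia and Tnfaip3 carry kB matches and are the genes most results below turn on, Icam1 is a called gene whose window held no match, and Cxcl1 and Cxcl2 carry matches but were hardly measurable. Each sequence is the 250 bases before the annotated start of the gene, 5′ to 3′ on the gene's own strand, from RefSeq (mouse build GRCm38.p6). Capitals mark matches to the 10-base kB consensus on either strand. The windows are chr12:55492648-55492897 (minus strand) for Nfkbia, chr10:19015411-19015660 (minus) for Tnfaip3, chr9:21015690-21015939 (plus) for Icam1, chr5:90890995-90891244 (plus) for Cxcl1 and chr5:90903649-90903898 (plus) for Cxcl2.
Nfkbia: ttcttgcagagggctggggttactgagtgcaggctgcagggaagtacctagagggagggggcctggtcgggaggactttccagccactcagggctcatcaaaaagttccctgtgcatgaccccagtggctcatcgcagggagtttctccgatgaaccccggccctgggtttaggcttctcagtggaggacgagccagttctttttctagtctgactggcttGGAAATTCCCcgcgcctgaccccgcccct
Tnfaip3: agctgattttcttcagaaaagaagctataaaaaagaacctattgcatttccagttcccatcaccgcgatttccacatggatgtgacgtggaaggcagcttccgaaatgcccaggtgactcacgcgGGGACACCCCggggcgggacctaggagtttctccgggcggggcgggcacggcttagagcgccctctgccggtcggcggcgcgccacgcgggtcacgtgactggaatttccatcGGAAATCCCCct
Icam1: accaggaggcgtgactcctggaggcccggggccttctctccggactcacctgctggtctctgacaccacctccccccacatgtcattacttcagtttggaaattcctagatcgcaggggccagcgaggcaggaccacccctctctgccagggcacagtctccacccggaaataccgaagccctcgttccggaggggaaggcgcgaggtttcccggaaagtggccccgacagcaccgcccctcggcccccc
Cxcl1: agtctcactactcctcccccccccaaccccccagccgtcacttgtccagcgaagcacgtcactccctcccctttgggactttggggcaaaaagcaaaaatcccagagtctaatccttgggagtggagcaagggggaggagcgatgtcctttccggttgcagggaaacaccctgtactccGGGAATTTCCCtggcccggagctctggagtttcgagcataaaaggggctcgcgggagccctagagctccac
Cxcl2: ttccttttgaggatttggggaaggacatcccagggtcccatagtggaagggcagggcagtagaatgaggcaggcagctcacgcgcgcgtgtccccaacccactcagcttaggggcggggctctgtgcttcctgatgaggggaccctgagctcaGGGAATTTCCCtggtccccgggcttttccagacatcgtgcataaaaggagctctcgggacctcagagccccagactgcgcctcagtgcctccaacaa

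The Nfkbia window held the match GGAAATTCCC, which begins at base -29 counted from the start. The Tnfaip3 window held GGGACACCCC at -125 and GGAAATCCCC at -12; a second annotated Tnfaip3 start had no match. In Cxcl1 and in Cxcl2 the pair GGGAATTTCC and GGAATTTCCC overlapped by all but 1 base at each end. Of the 8 genes with a window, 4 had a match, and the windows of Tnf, Il1b, Ccl3 and Icam1 had none. Over all promoters of the same length, 7.25% of 32851 windows and 8.23% of 27025 genes held the consensus. A match is a string of letters here, not a measured binding site.

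How far each gene could be followed depended on its level. Each tissue and time was taken as normalized on its own, so groups are compared only within a tissue and time. The ranges of group means given next span both times and compare no groups. Values are log2 probe-set summaries with a lower limit, or floor, near 2.2 in every set of arrays. Tnfaip3 and Nfkbia were above that floor on every array: group means of Nfkbia ran from 6.53 to 7.60 in brain and from 10.14 to 10.63 in spleen. Icam1, the endothelial and leukocyte adhesion molecule that leukocyte integrins bind, lay between 10.50 and 10.88 in the MLN. The neutrophil attractants Cxcl1 and Cxcl2 lay within 0.1 of the floor on most arrays, Cxcl2 on 75 of 76 in jejunum, 86 of 88 in the MLN and 72 of 72 in spleen. Cxcl1 rose above it in the MLN, where group means were 3.32 to 3.75. Tnf was at the floor on 86 of 86 brain arrays and between 5.98 and 6.17 in spleen.

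Few tests on the 10 genes were called. Against vehicle of the same tissue and time, 26 of 630 tests were called (limma, Benjamini-Hochberg adjusted p below 0.05 over all 17097 genes), of which 6 were higher and 20 lower. That is 4.13% of the tests on these genes, beside 4.96% of the tests on all genes in the same 63 comparisons, so the share called lay near the background. Centring each array on its median instead moved the calls over all genes. With the higher DMF dose they rose from 2110 to 5246 in the ILN at 12 h and from 3927 to 9373 in spleen at 6 h. In the untreated MLN they fell from 4174 to 3542. The 4.96% is therefore no background for counts with centring, which cannot be read as particular to these genes. With centring, 46 tests on the 10 genes were called, 3 higher and 43 lower. Of the 43, Cxcl1 and Cxcl2 gave 5 each; both lie within 0.1 of the floor on most arrays and had no lower call without centring, which moves a value at the floor by the median of its array. By gene, without centring, Tnfaip3 had 8 calls, Nfkbia 4 and Icam1 4, all lower, while Ccl3 had 3, Il1b 2, Ccl2 2, Ccl4 2 and Cxcl2 1. Tnf and Cxcl1 had none, with 3 and 2 of 63 tests at an unadjusted p under 0.05. By tissue, the MLN and the ILN had 7 calls each in 90 tests, or 7.78%, beside 4.86% and 3.71% of all genes over the same 9 comparisons. Kidney had 5 (5.56% beside 14.6%), spleen 4 (4.44% beside 5.96%), jejunum 2 (2.22% beside 4.08%), brain 1 (1.11% beside 1.43%) and whole blood 0 (beside 0.103%).

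DMF at 179.2 mg/kg gave 12 calls in 140 tests, or 8.57% against 7.67% of all genes, and the NAIVE group gave 10 in 70, or 14.3% against 15.9%. DMF at 100 mg/kg gave 1 call in 140, or 0.714% against 0.738%, and the combination 3 in 140, or 2.14% against 3.69%. MEF alone gave 0 of 140, where 2.26% of all genes were called, with 9 of the MEF tests at an unadjusted p under 0.05 in limma. No member was called in kidney with DMF 100 mg/kg, where 4.07% of all genes were called at 6 h and 1.38% at 12 h, or with MEF, where 5.9% and 17.5% were. None was called in the untreated jejunum (5.44%) or in the MLN with DMF 100 mg/kg at 12 h (0.0819%). Differences between doses called no member in kidney at 6 h (9.15%) or in the MLN (0.0468% at 6 h and 4.53% at 12 h). Differences between times called none in kidney (0.404% with DMF 100 mg/kg, 7.14% with 179.2 mg/kg) or jejunum (0.0175% with DMF 100 mg/kg and with MEF, 3.15% with 179.2 mg/kg), and the higher dose minus the combination called none in jejunum at 12 h (0.0526%).

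All comparisons within a tissue and time share the vehicle arrays, and the tissues come from the same numbered animals, so counts over them are not independent.

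**Figure D1:**
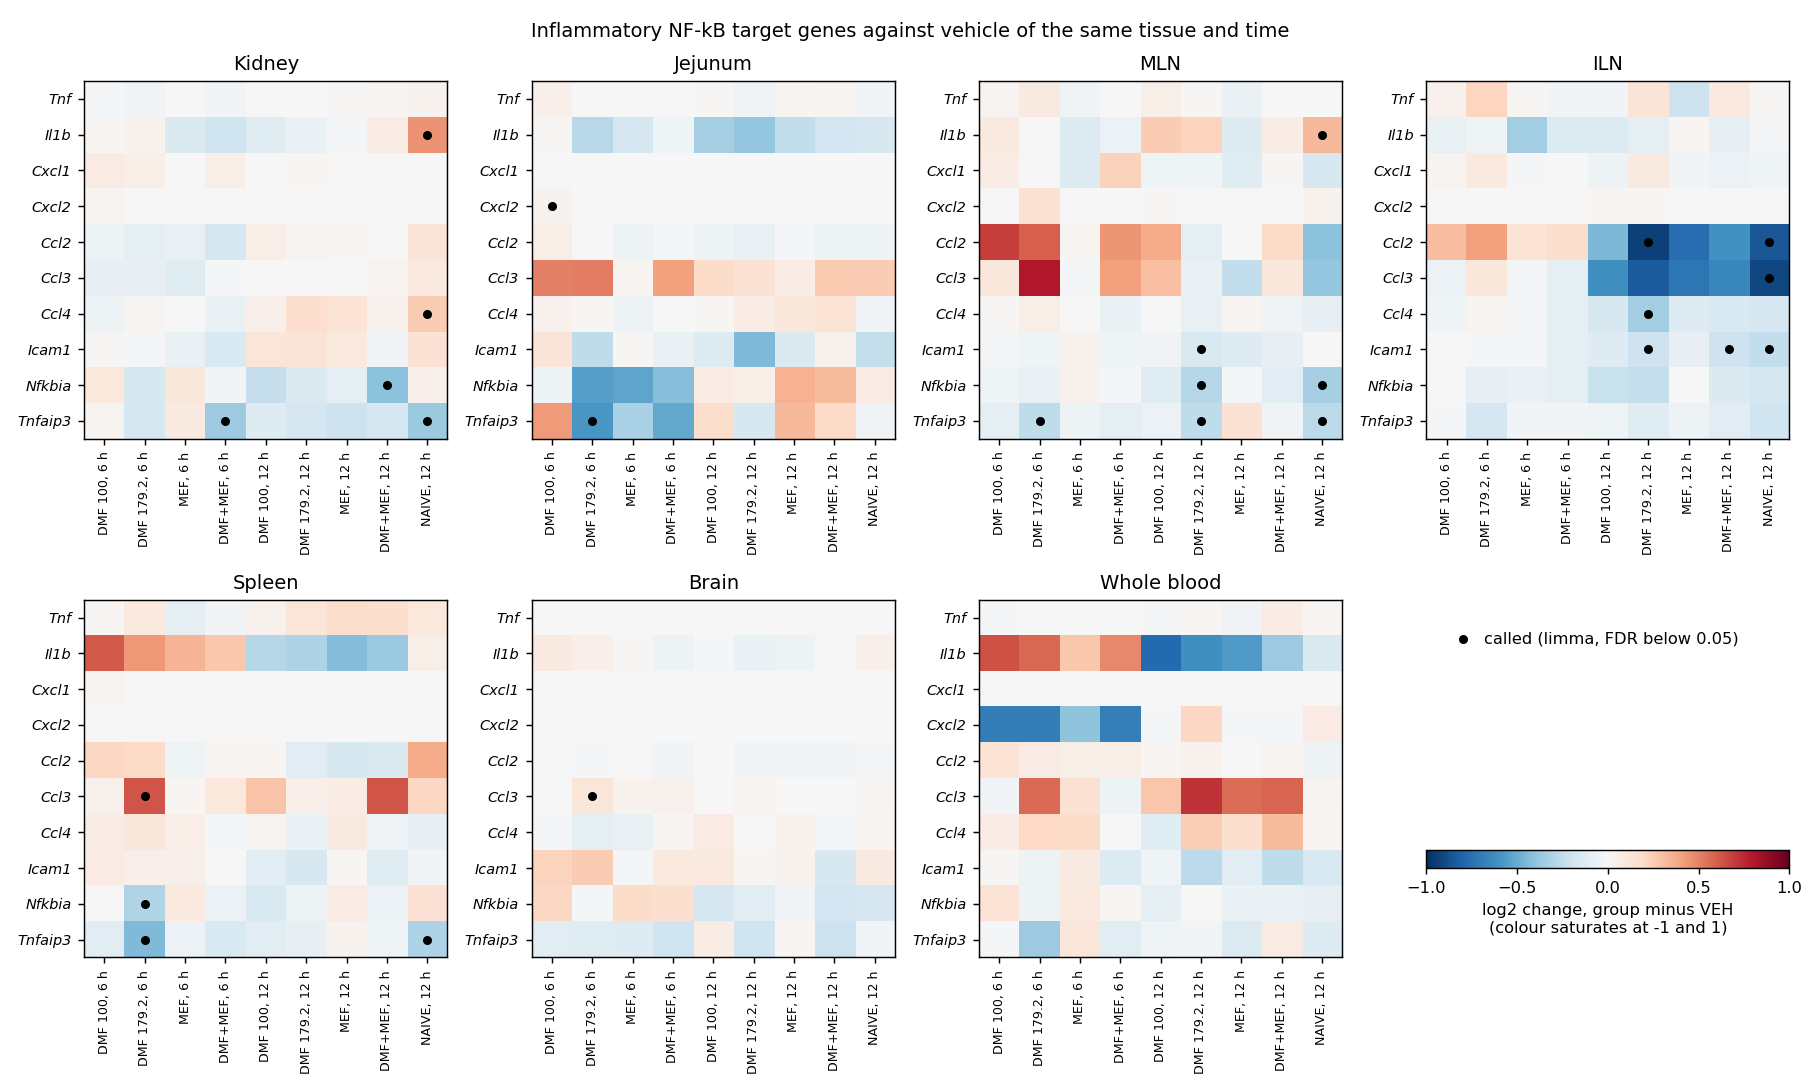
Log2 change of each gene (rows) in each dosed or NAIVE group against vehicle of the same tissue and time (columns), in 7 panels for the 7 tissues; colour gives the change and a dot marks the 26 called tests. The dots on Tnfaip3, Nfkbia and Icam1 are all on the blue, lower side, and whole blood has none.

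Whether the doses acted was read from Nqo1, the NRF2 target most used to follow fumarates. Nqo1 rose in all 8 dosed groups of kidney, by 1.02 to 1.75 on the log2 scale, and in all 8 of jejunum, by 0.66 to 1.91. With DMF at 179.2 mg/kg at 6 h it rose by 2.60 ± 0.16 (SE) in the MLN, 2.05 ± 0.25 in spleen, 1.76 ± 0.15 in the ILN and 0.43 ± 0.14 in brain. With MEF at 6 h, mean Nqo1 in brain was 7.451 against 7.451 with vehicle, and in the ILN 7.53 against 7.40. At 12 h these means were 7.46 against 7.28 in brain and 6.89 against 6.30 in the ILN. So an action of MEF on Nqo1 at 6 h was not seen in brain. In whole blood limma called 0 of 9 Nqo1 tests. Hmox1, whose product breaks down heme, rose by 2.35 to 4.16 in the 4 dosed kidney groups at 6 h. Among the 10 genes, outside the ILN, the called change furthest from 0 was that of Ccl3 in spleen, at 0.63.

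The labelled tissues carried markers of their cell types. The mean log2 level was 9.98 for tubule genes in kidney, 13.7 for enterocyte genes in jejunum and 12.0 for neuronal genes in brain. T cell genes were at 11.001 and 11.360 in the MLN and ILN, and erythroid genes at 11.8 in blood. B cell genes were at 10.2 in spleen but also at 10.2 in the ILN, so they do not mark spleen alone. Of 3 measured erythroid genes, 3 were above the median gene in spleen and 0 in the MLN and ILN. Some arrays stood apart. In spleen, 4 of 8 vehicle arrays at 6 h carried pancreatic acinar transcripts, as did 4 other 6 h and 9 other 12 h spleen arrays. In jejunum at 12 h, 3 vehicle arrays and 1 DMF 100 mg/kg array carried Hoxb6 and Hoxb9, genes of distal intestine. Kidney DMF 179.2 mg/kg replicate 24 at 12 h was also set apart, with no marker level given for that choice. Vehicle replicate 1 of the ILN at 12 h was far from its group in chemokines, as described below.

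Tnf, the ligand that itself activates NF-kB, was 6.04 to 6.48 (median 6.15) on 7 spleen arrays at 6 h with DMF at 179.2 mg/kg and 5.91 to 6.26 (median 6.04) on 8 with vehicle, a change of 0.10 ± 0.06 (limma adjusted p = 0.301). In the ILN at 6 h the Tnf change was 0.21 ± 0.09 (adjusted p = 0.531), and over all 63 comparisons it ran from -0.21 to 0.21. Il1b, which encodes interleukin 1 beta, ran from -0.78 to 0.64 and was called in 2 comparisons of untreated mice given below.

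The feedback inhibitors Tnfaip3 and Nfkbia were both lower in spleen 6 h after DMF at 179.2 mg/kg. Tnfaip3 lay between 8.34 and 8.65 (median 8.50) on the 7 dosed arrays and between 8.80 and 9.07 (median 8.93) on the 8 vehicle arrays. No dosed array reached the lowest vehicle array. Tnfaip3 fell by 0.44 on the log2 scale, to 0.738 times the vehicle level (SE 0.07, limma adjusted p = 6.45e-06). Of the 10 genes 3 were called in this comparison, 2 lower and 1 higher, where 23% of all genes were called; the median change of the 10 was 0.077 and that of all genes 0.0058.

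Nfkbia ran from 9.78 to 10.50 (median 10.26) on the same dosed arrays and from 10.39 to 10.66 (median 10.49) with vehicle. Of the dosed arrays 4 were below the vehicle range and 3 overlapped its lower end. Nfkbia fell by 0.30, to 0.81 times vehicle (SE 0.08, limma adjusted p = 0.00279).

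The third call was Ccl3, which encodes the chemokine MIP-1-alpha that draws monocytes and lymphocytes. Its level was 4.58 to 5.60 (median 5.21) on the dosed arrays and 4.36 to 4.77 (median 4.59) with vehicle. Of the 7 dosed arrays, 6 were above every vehicle array. Ccl3 rose by 0.63, to 1.54 times vehicle (SE 0.16, limma adjusted p = 0.00325), so within 1 tissue and time the feedback inhibitors and a chemokine target moved in opposite directions. Its neighbour Ccl4 (MIP-1-beta), whose annotated interval on chromosome 11 overlaps that of Ccl3, was 0.11 ± 0.06 and not called (adjusted p = 0.21).

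**Figure D2:**
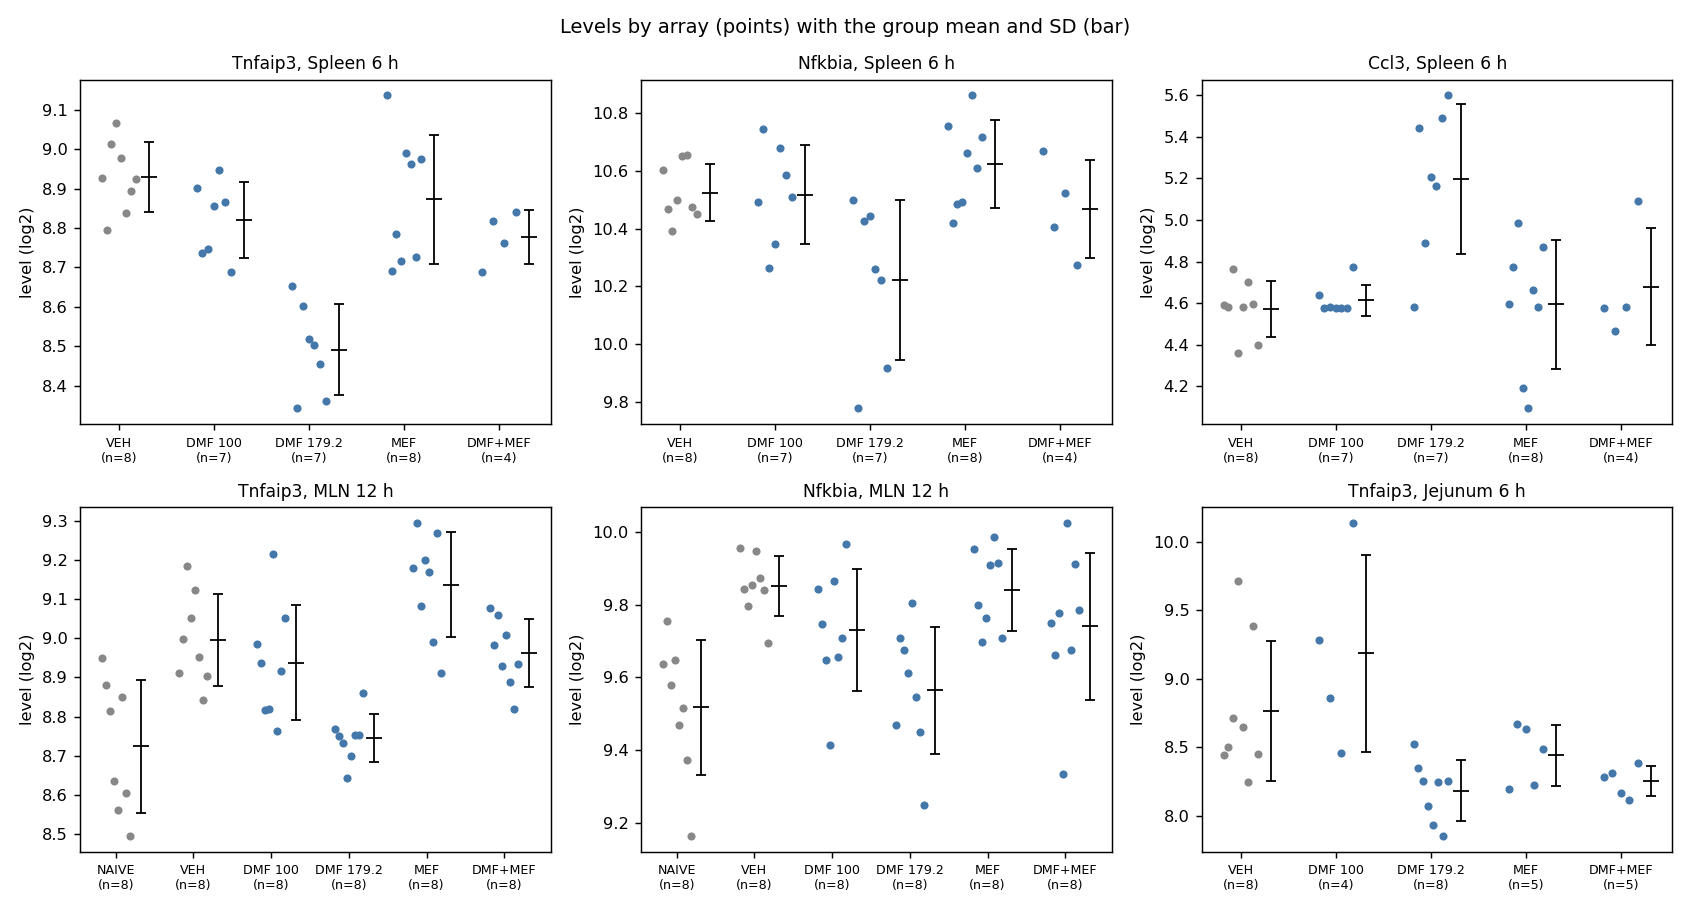
Log2 level on each array (points) with the group mean and SD (bars) for Tnfaip3, Nfkbia and Ccl3 in spleen at 6 h, Tnfaip3 and Nfkbia in the MLN at 12 h and Tnfaip3 in jejunum at 6 h, by group; each panel has its own axis. The spleen Tnfaip3 points with DMF 179.2 mg/kg lie between 8.34 and 8.65, below all vehicle points, and the MLN points of NAIVE and DMF 179.2 mg/kg lie low together.

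The dose difference itself passed in spleen. At 6 h, DMF 179.2 mg/kg minus DMF 100 mg/kg was -0.33 ± 0.07 for Tnfaip3 (limma adjusted p = 0.00553), with no overlap between 8.69 to 8.95 on the 7 lower-dose arrays and the higher-dose range. It was -0.30 ± 0.08 for Nfkbia (adjusted p = 0.0217) and 0.58 ± 0.17 for Ccl3 (adjusted p = 0.032). These 3 were the members called, where 5.52% of all genes were, and the calls of Nfkbia and Ccl3 were each lost when any of 3 of the 14 arrays was left out. The combination, which holds the lower DMF dose plus MEF, gave Tnfaip3 levels of 8.69, 8.82, 8.76 and 8.84. The higher dose minus the combination was -0.29 ± 0.09 (limma adjusted p = 0.0387, 5.11% of all genes called), with no overlap, but the call was lost without any 1 of the 4 combination arrays (adjusted p = 0.0501 to 0.0982), or without dosed replicate 68, 72 or 74.

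The spleen difference in Tnfaip3 was smaller at 12 h. The Tnfaip3 levels were then 8.24 to 8.63 (median 8.44) with DMF 179.2 mg/kg and 8.36 to 8.66 (median 8.46) with vehicle, and none of the 10 genes was called at that dose, with 1 of 10 at an unadjusted p under 0.05 in limma, where 0.474% of all genes were. The change at 12 h minus the change at 6 h was 0.35 ± 0.10 for Tnfaip3 (limma adjusted p = 0.0253, 6.09% of all genes called).

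Other cell types moved with this comparison. Of 9 measured neutrophil markers 5 were higher with DMF 179.2 mg/kg; their summed log2 level was 13.72 to 14.42 against 12.88 to 13.90 with vehicle, and 0 of them was at the floor on all arrays. Of the monocyte and macrophage markers 4 of 11 were higher (sum 13.35 to 13.58 against 13.34 to 13.48) and 2 of 5 T cell markers lower (12.67 to 13.04 against 12.87 to 13.26). Pancreatic acinar sums were 4.91 to 5.04 on the dosed arrays and 5.03 to 14.1 with vehicle. In bulk tissue, fewer cells of a type and less transcript per cell cannot be told apart, and the part these cells have in the result was not tested. Without the arrays carrying acinar transcripts Tnfaip3 was -0.47 (adjusted p = 0.000202) and Nfkbia -0.30 (adjusted p = 0.0352), while Ccl3 was 0.61 with an adjusted p of 0.0575. Without them the dose difference was called for Tnfaip3 (-0.34, adjusted p = 0.0251) but not for Nfkbia (-0.33, adjusted p = 0.0547) or Ccl3 (0.57, adjusted p = 0.15), and the difference from the combination was not called (-0.27, adjusted p = 0.0919).

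Around these genes the rest of the pathway moved in spleen at 6 h with DMF 179.2 mg/kg as follows, each list beside the 23% of all genes called. One of 4 measured NF-kB subunits rose, Nfkb2 (0.37 ± 0.09), the precursor of p52. Among 10 other IkB proteins and feedback inhibitors 4 rose and 0 fell, among them Nfkbib (0.48 ± 0.09), which encodes IkB-beta, and the A20 partner Tnip1 (0.36 ± 0.07). Among 11 upstream kinases and adaptors 3 rose, with Map3k14 (0.44 ± 0.11), the kinase of the alternative pathway, and Ikbkg (0.41 ± 0.09), the scaffold of the IkB kinase complex. Of 10 receptors for the ligands 4 rose, with Ccr2 at 0.50 ± 0.14, Ccr1 at 0.50 ± 0.17 and the TNF receptor Tnfrsf1a at 0.44 ± 0.09. Of 25 other NF-kB targets 6 rose and 3 fell, Tnfaip2 at 1.01 ± 0.17 and Gadd45b, a stress-response gene, at -0.60 ± 0.12.

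Immediate early genes, which respond within minutes to many stimuli, fell in 4 of 11 cases, with Fos at -0.47 ± 0.17 and Egr2 at -0.39 ± 0.11. Of 8 glucocorticoid-induced genes 2 rose and 1 fell, with Per1 at 0.61 ± 0.16. The share of all genes called in this spleen comparison was 23%.

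In the MLN, which drains the gut, Nfkbia and Tnfaip3 were also lower with DMF 179.2 mg/kg. At 12 h Nfkbia was 9.25 to 9.81 (median 9.58) on 8 dosed arrays and 9.70 to 9.96 (median 9.85) on 8 vehicle arrays. Of the 8 dosed arrays, 6 were below every vehicle array. It fell by 0.29 (SE 0.07, limma adjusted p = 0.00152). Tnfaip3 was 8.64 to 8.86 (median 8.75) against 8.84 to 9.19 (median 8.98), with 1 dosed array inside the vehicle range, and fell by 0.25 (SE 0.06, limma adjusted p = 0.00288).

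Icam1 was 10.38 to 10.58 (median 10.50) against 10.41 to 10.92 (median 10.66) in those MLN arrays. The ranges overlapped widely, and the fall of 0.15 (SE 0.05, limma adjusted p = 0.0361) was lost when any of 5 of the 16 arrays was left out, or after a further quantile normalization (adjusted p = 0.0512). These 3 were the members called, all lower, where 13.8% of all genes were called; the median change of the 10 was -0.071 and that of all genes 0.0036. Of the markers of other cell types, 1 of 11 macrophage and 1 of 5 T cell markers were higher and 1 of 5 NK cell and 1 of 5 endothelial markers lower. Endothelial sums were 9.66 to 9.98 (median 9.83) with DMF 179.2 mg/kg against 9.73 to 10.32 (median 10.03), T cell sums 13.32 to 13.50 against 13.18 to 13.37, and macrophage sums 12.90 to 13.18 against 12.86 to 13.16. Their part in the result was not tested.

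At 6 h the MLN had 1 call with DMF 179.2 mg/kg, Tnfaip3, where 0.392% of all genes were called. It was 9.26 to 9.49 (median 9.36) against 9.44 to 9.88 (median 9.58), and fell by 0.26 (SE 0.06, limma adjusted p = 0.0371), a call that was lost when any of 8 of the 16 arrays was left out. Against the combination at 12 h, Tnfaip3 with DMF 179.2 mg/kg was lower by a log2 difference of -0.22 ± 0.06 (limma adjusted p = 0.00985, 15.6% of all genes called), the combination arrays lying between 8.82 and 9.08. No other member was called in that comparison.

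Chemokines of the MLN at 6 h had large changes with wide spread, and none was called. Ccl2, which encodes the monocyte attractant MCP-1, was 6.48 to 7.50 (median 6.86) with DMF 179.2 mg/kg and 5.83 to 6.74 (median 6.41) with vehicle, a change of 0.60 ± 0.17 (limma adjusted p = 0.12). With DMF 100 mg/kg the Ccl2 change was 0.69 ± 0.17 (adjusted p = 0.313, 0.0234% of all genes called). Ccl3 was 5.17 to 6.05 (median 5.62) with DMF 179.2 mg/kg and 4.51 to 6.28 (median 4.65) with vehicle, a change of 0.80 ± 0.24 (adjusted p = 0.16). One vehicle array, at 6.28, was above every dosed array.

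The wider pathway in the MLN with DMF 179.2 mg/kg is given beside the share of all genes called, 13.8% at 12 h and 0.392% at 6 h. At 12 h 2 of 10 other IkB and feedback genes rose, with Nfkbib at 0.31 ± 0.08, 1 of 11 kinases and adaptors rose, Ikbkg at 0.32 ± 0.07, and 1 of 10 receptors rose, Itgb2 at 0.16 ± 0.05, while 0 of 4 subunits was called. Of 25 other targets 3 rose and 2 fell, with Gadd45b at -0.42 ± 0.09. Of 11 immediate early genes 5 fell, with Fos at -0.75 ± 0.19, and 2 of 8 glucocorticoid-induced genes fell. At 6 h only 1 gene of these lists was called, Tnfaip2 at 0.77 ± 0.11.

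In jejunum at 6 h the spread between animals was larger. Tnfaip3 was 7.85 to 8.52 (median 8.25) on 8 arrays with DMF 179.2 mg/kg and 8.25 to 9.71 (median 8.58) on 8 vehicle arrays. The dosed arrays crowded at the lower end, while the vehicle arrays reached far upward. Tnfaip3 fell by 0.58, to 0.67 times vehicle (SE 0.18, limma adjusted p = 0.0338), the only member called there, where 8.62% of all genes were called. Leaving out vehicle replicate 54 gave -0.44 and replicate 57 -0.49, and the call was lost without either, or without dosed replicate 70, 71 or 73. Nfkbia moved with it, at 9.11 to 10.02 (median 9.64) against 9.62 to 11.2 (median 9.95), a change of -0.55 ± 0.20 that missed the threshold (limma adjusted p = 0.0698).

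With DMF 100 mg/kg the 4 jejunum arrays had Tnfaip3 levels of 9.28, 8.86, 8.46 and 10.1, so the dose difference was -1.001 ± 0.22 (limma adjusted p = 0.0231, 0.316% of all genes called). Without lower-dose replicate 64 it was -0.68, with an adjusted p of 0.169. The call was lost when any of 2 of the 12 arrays was left out. The 5 combination arrays, at 8.29, 8.31, 8.17, 8.11 and 8.39, were as low as the higher dose, but their change from vehicle of -0.51 ± 0.21 was not called (adjusted p = 0.141, 6.57% of all genes called). Another call in jejunum at 6 h, Cxcl2 at 0.034 with DMF 100 mg/kg (limma adjusted p = 0.0364, 2.61% of all genes called), came from 1 array at 2.28 among values at the floor of 2.15, and it was 0 without that array.

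Elsewhere in the jejunal pathway, Gadd45b fell with DMF 179.2 mg/kg at 6 h (-0.58 ± 0.17), the only one of 25 other targets called. Tnip1 rose (0.32 ± 0.11), the only one of 10 IkB and feedback genes. The share of all genes called in that comparison was 8.62%. Per1, a clock and glucocorticoid-induced gene, rose by 1.43 ± 0.29, with 2 of 8 genes of its list higher. At 12 h with that dose 2 of 4 subunits fell, Nfkb2 (-0.45 ± 0.14) and Relb (-0.45 ± 0.13), the 2 partners of the alternative pathway, together with Tnip2 (-0.38 ± 0.13) and Traf2 (-0.34 ± 0.10). No member was called at 12 h with DMF 179.2 mg/kg (2 of 10 at an unadjusted p under 0.05 in limma, 7.4% of all genes called), and both distal-intestine markers, Hoxb6 and Hoxb9, were lower in that comparison.

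In kidney the dosed groups gave 2 calls, both with the combination. Tnfaip3 at 6 h was 4.41 to 5.12 (median 4.93) on 7 arrays against 4.93 to 5.57 (median 5.19) on 7 vehicle arrays, and fell by 0.36 (SE 0.11, limma adjusted p = 0.013, 13.2% of all genes called). The array at 4.41 lay far below the others, and without it the change was -0.29 and lost its call. Nfkbia at 12 h was 7.28, 6.96, 6.91 and 6.69 on the 4 combination arrays and 7.06 to 7.70 (median 7.38) on 8 vehicle arrays. It fell by 0.41 (SE 0.13, limma adjusted p = 0.0261, 11% of all genes called), and was -0.32 (adjusted p = 0.18) without the lowest of the 4. Leaving out replicate 34 or 35 also ended the call, at -0.41 (adjusted p = 0.0511) and -0.39 (adjusted p = 0.0731). DMF 179.2 mg/kg, with 25% of all genes called in kidney at 6 h, called 0 of the 10 genes, and 0 of 10 had an unadjusted p under 0.05 in limma.

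Other pathway genes of the kidney at 6 h with DMF 179.2 mg/kg are given beside the 25% of all genes called. Of 10 IkB and feedback genes 4 rose and 1 fell, and of 11 kinases and adaptors 3 rose. Of 10 receptors 1 rose and 1 fell, Tnfrsf1a rising by 0.51 ± 0.06. Of 25 other targets 4 rose and 1 fell, the dendritic cell marker Cd83 at -0.55 ± 0.16. Per1 rose by 1.59 ± 0.26.

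Untreated mice also differed from vehicle mice, in Tnfaip3 in 3 tissues and in Nfkbia in 1. In the MLN at 12 h, Nfkbia was 9.16 to 9.76 (median 9.55) on 8 NAIVE arrays, a log2 change from vehicle of -0.33 ± 0.07 (limma adjusted p = 9.27e-05). Tnfaip3 was 8.49 to 8.95 (median 8.73), a change of -0.27 ± 0.06 (limma adjusted p = 0.000564). Il1b was 5.98 to 6.57 (median 6.37) against 5.80 to 6.30 (median 5.91) and was higher by 0.33 ± 0.13 (limma adjusted p = 0.0476), a call that was lost when any of 12 of the 16 arrays was left out. These were 3 calls of 10, where 24.4% of all genes were called. The dosed group and the NAIVE group both took the vehicle arrays as their reference and cannot be read as independent of each other.

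In kidney the NAIVE group had 3 calls as well, where 46% of all genes were called. Tnfaip3 was 3.80 to 4.18 (median 4.11) on 6 arrays and 4.24 to 4.52 (median 4.44) on 8 vehicle arrays, with no overlap, a change of -0.37 ± 0.11 (limma adjusted p = 0.00288). Il1b was 4.91 to 5.31 (median 5.11) against 4.44 to 4.81 (median 4.63), again with no overlap, and was higher by 0.45 ± 0.16 (limma adjusted p = 0.0189). Ccl4 was 3.10 to 3.62 (median 3.26) against 2.80 to 3.14 (median 3.10) and was higher by 0.25 ± 0.07 (limma adjusted p = 0.00281). Of the macrophage markers 1 of 11 and of the neutrophil markers 1 of 9 were higher; macrophage sums were 9.08 to 9.41 against 8.95 to 9.47. T cell sums did not overlap, at 6.622 to 6.835 against 6.364 to 6.619, with 1 of 5 T cell markers higher. Tubule sums did not overlap either, at 12.39 to 12.65 against 12.66 to 12.93, with 1 of 3 measured tubule markers higher and 1 lower, and the part of these cells in the result was not tested.

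In spleen the 3 NAIVE arrays had Tnfaip3 at 8.05, 8.33 and 8.21, all below the 7 vehicle arrays at 8.36 to 8.66. The change was -0.31 ± 0.10 (limma adjusted p = 0.0167), the only call of 10 where 18.3% of all genes were called, and it was -0.23 (adjusted p = 0.216) without replicate 41.

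Tnfaip3 was below vehicle in all 7 NAIVE comparisons, from -0.029 to -0.37, of which 3 were called. With DMF 179.2 mg/kg it was below vehicle in 14 of 14 tissue and time pairs, from -0.030 to -0.58, of which 4 were called, and Nfkbia in 12 of 14, of which 2 were called. With DMF 100 mg/kg Tnfaip3 was below vehicle in 10 of 14, with MEF in 8 and with the combination in 12. Nfkbia was below vehicle in 4 of 7 NAIVE comparisons, of which 1 was called. It was below in 9 of 14 with DMF 100 mg/kg, in 6 with MEF and in 11 with the combination. Other members were mixed with DMF 179.2 mg/kg. Ccl3 was above vehicle in 11 of 14 and Tnf and Ccl4 in 10 each, while Icam1 was below in 10 and Il1b in 9. These signs come from the same numbered animals and shared vehicle arrays and are given as a description.

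The wider pathway in the NAIVE comparison of the MLN, where 24.4% of all genes were called, held 3 of 10 IkB and feedback genes higher, with Tnip1 at 0.34 ± 0.08, 4 of 25 other targets higher and 3 lower, with Gadd45b at -0.41 ± 0.09, and 1 receptor of 10 higher and 2 lower, with Il1r1 at -0.36 ± 0.09 and Tnfrsf1b at -0.27 ± 0.07. Of 11 immediate early genes 6 were lower, with Fos at -0.83 ± 0.19 and Egr2 at -0.61 ± 0.10, and 4 of 8 glucocorticoid-induced genes were lower, with Tsc22d3 at -0.65 ± 0.18 and Cebpd at -0.62 ± 0.12. In kidney, where 46% of all genes were called, 3 of 4 subunits were higher than vehicle, with Nfkb2 at 0.56 ± 0.10 and Relb at 0.31 ± 0.12, and 4 of 10 IkB and feedback genes were higher and 1 lower, Nfkbiz at -0.95 ± 0.10. Jun was -0.82 ± 0.08 there, and 4 of 8 glucocorticoid-induced genes were lower and 1 higher.

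The ILN at 12 h gave 7 calls, all lower than vehicle, and most of them rested on 1 vehicle array. The 4 vehicle arrays, replicates 1, 6, 7 and 8, had Ccl2 levels of 8.23, 6.66, 6.21 and 6.36. Ccl3 was 6.92, 3.50, 3.52 and 3.35 on them, and Ccl4 was 6.02, 5.15, 5.18 and 5.06. Replicate 1 stood above the other 3 in each of these chemokines, but not in Icam1, which was 10.75, 10.85, 10.74 and 10.89.

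With DMF 179.2 mg/kg, Ccl2 was 5.61 to 6.34 (median 5.86) and changed by -0.94 ± 0.21 (limma adjusted p = 0.00274), and Ccl4 was 4.83 to 5.15 (median 5.02) and changed by -0.34 ± 0.10 (adjusted p = 0.0127). Together with Icam1 these were 3 calls of 10, where 12.3% of all genes were called. In the NAIVE group, Ccl2 changed by -0.85 ± 0.20 (limma adjusted p = 0.00292) and Ccl3 by -0.91 ± 0.30 (adjusted p = 0.0299), again with Icam1 3 calls of 10, where 14.5% of all genes were called. Without vehicle replicate 1, Ccl2 was -0.48 (adjusted p = 0.171) and Ccl4 -0.12 (adjusted p = 0.528) with DMF 179.2 mg/kg, and Ccl2 was -0.40 (adjusted p = 0.218) and Ccl3 -0.045 (adjusted p = 1) in the NAIVE group. All genes called then fell from 12.3% to 1.74% and from 14.5% to 4.09%.

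The Icam1 changes kept their size without that array. Icam1 was 10.44 to 10.76 (median 10.60) with DMF 179.2 mg/kg, 10.54 to 10.71 (median 10.59) with the combination and 10.48 to 10.67 (median 10.54) in the NAIVE group. The last 2 did not overlap the vehicle arrays. The changes were -0.20 ± 0.06 (limma adjusted p = 0.0163), -0.21 ± 0.06 (adjusted p = 0.0281, the only call of 10 where 3.53% of all genes were called) and -0.25 ± 0.06 (adjusted p = 0.00234). Without replicate 1 they were -0.22, -0.23 and -0.26, of which the last was still called (adjusted p = 0.0568, 0.0601 and 0.00816). The call with the combination was also lost without vehicle replicate 6 or 8, and that with DMF 179.2 mg/kg without replicate 8.

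**Figure D3:**
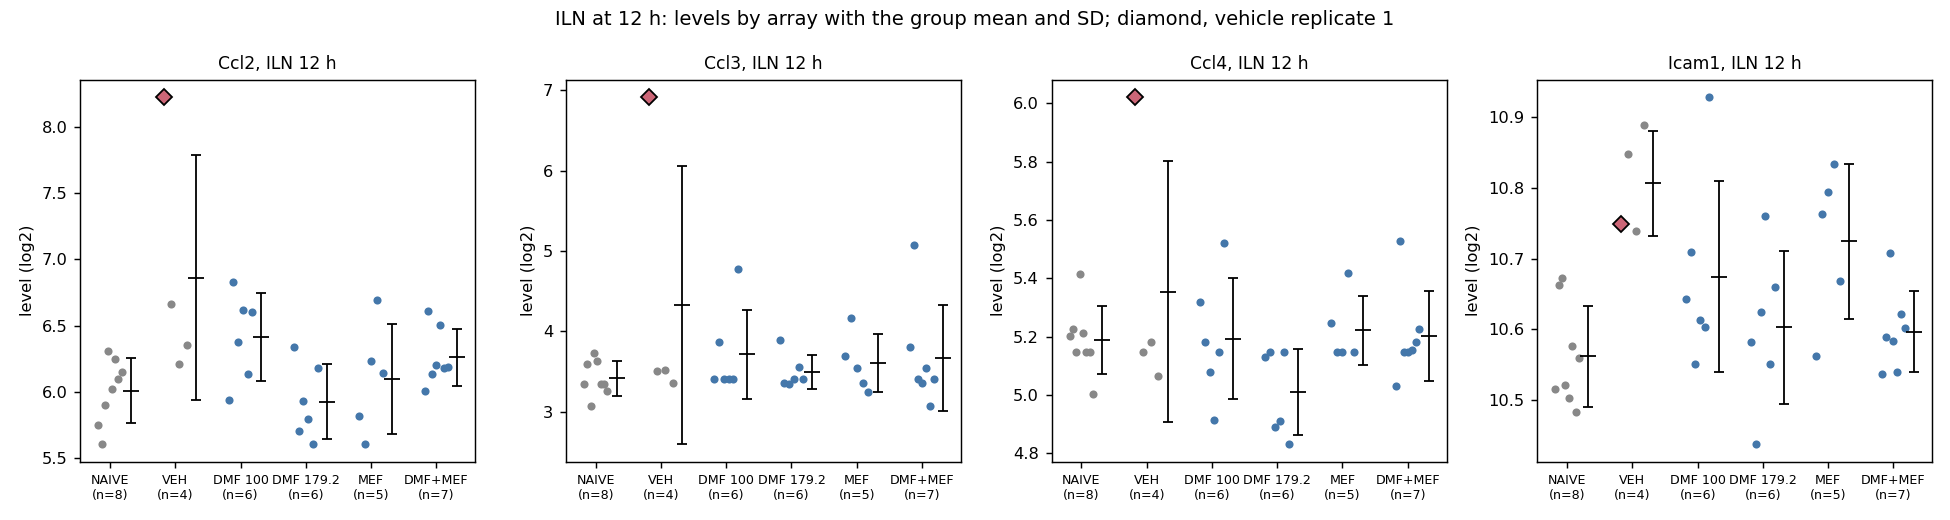
Log2 level on each ILN array at 12 h (points) with the group mean and SD (bars) for Ccl2, Ccl3, Ccl4 and Icam1, by group; the diamond is vehicle replicate 1 and each panel has its own axis. The diamond is at 8.23, 6.92 and 6.02 for the 3 chemokines, above every other array, and within its group for Icam1.

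The same array was high in 2 related chemokines. Ccl7 was 7.26, 5.03, 4.63 and 5.05 on the 4 vehicle arrays, and Cxcl10, an interferon-induced chemokine, was 11.6, 8.63, 8.06 and 7.99. Its NK cell marker sum was 10.48 against 9.32, 9.18 and 8.99, its macrophage sum 13.10 against 13.40, 13.28 and 13.30, and what sets this array apart was not tested. Of 25 other NF-kB targets 6 fell with DMF 179.2 mg/kg and 8 were lower in the NAIVE group, against 3 and 3 without replicate 1. The shares of all genes called were 12.3% and 14.5%, and 1.74% and 4.09% without that array. Ccl7 was called with and without it, at -1.26 ± 0.22 and -0.67 with DMF 179.2 mg/kg. Ikbkg was higher with DMF 179.2 mg/kg at 0.43 ± 0.10 and Tnfrsf1a at 0.39 ± 0.08, both called without replicate 1 too. Mast cell markers were higher in 4 of 5 cases with DMF 179.2 mg/kg, their sums being 8.86 to 9.68 against 6.97 to 8.75 with vehicle.

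At 6 h none of the 10 genes was called in the ILN at any dose (limma, 3 of 40 at an unadjusted p under 0.05). Few of all genes were called at that time: 0.0292% with DMF 100 mg/kg, 0.234% with 179.2 mg/kg, 0.00585% with MEF and 0.433% with the combination. Ccl2 was then 6.47 to 7.54 (median 6.93) with DMF 179.2 mg/kg and 6.38 to 6.69 (median 6.59) with vehicle, a change of 0.41 ± 0.18 (adjusted p = 0.612, 0.234% of all genes called). The change at 12 h minus that at 6 h was -1.35 ± 0.27 (limma adjusted p = 0.00452, 3.83% of all genes called). It was -0.89 (adjusted p = 0.0671) without vehicle replicate 1.

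In brain, Ccl3 lay within 0.1 of the floor on 76 of 86 arrays. At 6 h it was 2.22 to 2.60 (median 2.23) with DMF 179.2 mg/kg and 2.19 to 2.22 (median 2.22) with vehicle. Of the 8 dosed arrays 4 shared the value 2.22 with most vehicle arrays and 4 lay above it, a change of 0.12 ± 0.03 (limma adjusted p = 0.0151), the only call of 10 where 7.2% of all genes were called. The difference from DMF 100 mg/kg, whose 8 arrays were all within 0.1 of the floor, was 0.11 ± 0.03 (limma adjusted p = 0.0193, 8.02% of all genes called). With arrays centred on their median both brain values lost their call, at 0.026 and 0.0098. In whole blood 0 of 90 tests was called by limma, and 11 had an unadjusted p under 0.05; the share of all genes called there was at most 0.322%.

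Il1b shows how wide the spread in blood was. At 6 h it was 9.55 to 10.1 (median 9.82) on 6 vehicle arrays and 9.55 to 11.5 (median 10.5) on 8 arrays with DMF 100 mg/kg, a change of 0.64 ± 0.33 (limma adjusted p = 0.792). At 12 h it was 9.25 to 10.8 (median 10.5) with vehicle and 8.22 to 10.1 (median 9.71) with that dose, a change of -0.78 ± 0.31 (adjusted p = 0.402). Spleen had the same signs, with values of 0.61 ± 0.24 at 6 h (adjusted p = 0.299) and -0.29 ± 0.24 at 12 h (adjusted p = 0.99). Neutrophil sums in blood at 6 h were 13.73 to 14.30 with vehicle and 13.96 to 14.86 with DMF 100 mg/kg.

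MEF alone gave no call, at a mass dose that no DMF group matches, so its values stand beside those of DMF without a test. In spleen at 6 h with MEF, Tnfaip3 was 8.69 to 9.14 (median 8.87), a change of -0.056 ± 0.07 (limma adjusted p = 0.822), and Nfkbia changed by 0.10 ± 0.08 (adjusted p = 0.552, 3.5% of all genes called). In the MLN at 12 h Tnfaip3 was 8.91 to 9.30 (median 9.18), a change of 0.14 ± 0.06 (adjusted p = 0.321, 0.602% of all genes called). In jejunum at 6 h the Nfkbia change was -0.53 ± 0.23 (adjusted p = 0.265, 1.19% of all genes called).

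Within groups, some of the 10 genes varied together from array to array. Over deviations from group means, 199 pairs were tested within tissues (2-sided permutation test, 100000 draws, Benjamini-Hochberg adjusted over the 199). The smallest raw p the draws can give is 1e-05. A member entered where most arrays of the tissue lay more than 0.1 above the floor. Some members therefore had many values at the floor, as Tnf on 35 and Ccl3 on 36 of 77 kidney arrays. Of the 199, 38 were positive and 7 negative at an adjusted p under 0.05, and the median r was 0.052. No share for pairs of other genes was taken, so these counts cannot be read as particular to the members. Positive and negative pairs were 8 and 4 of 36 in the ILN, 6 and 2 of 36 in the MLN, and 4 and 1 of 28 in blood. There were 9 positive pairs of 28 in jejunum, 7 of 28 in spleen, 3 of 28 in kidney and 1 of 15 in brain, with 0 negative in each. Among the negative pairs, Il1b and Tnfaip3 in the ILN had r = -0.41 (rho = -0.36, raw permutation p = 0.00028 and 0.00195, adjusted 0.00372 and 0.0208, r = -0.35 without the 2 farthest arrays). Nfkbia and Tnfaip3 varied together in jejunum (Pearson r = 0.78, Spearman rho = 0.71, raw permutation p = 1e-05 for both, adjusted 0.000498 and 0.000398, over 76 arrays, r = 0.73 without the 2 farthest arrays). Within time points r was 0.74 over 30 arrays at 6 h and 0.81 over 46 at 12 h. They also did so in spleen (r = 0.44, rho = 0.39, raw permutation p = 0.00013 and 0.00058, adjusted 0.00245 and 0.00962, r = 0.41 without the 2 farthest), in the ILN (r = 0.42, rho = 0.39, raw permutation p = 0.00018 and 0.00073, adjusted 0.00256 and 0.0107, r = 0.42) and in the MLN (r = 0.37, rho = 0.37, raw permutation p = 0.00055 and 0.00052, adjusted 0.00684 and 0.00959, r = 0.34), with positive values at both times in each. In kidney, brain and blood the relation did not pass (permutation adjusted p of r = 0.638, 0.311 and 0.0584).

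Ccl3 and Ccl4 varied together in the ILN (r = 0.77, rho = 0.49, raw permutation p = 1e-05 for both, adjusted 0.000498 and 0.000398, r = 0.57 without the 2 farthest arrays), though r was 0.28 at 6 h and 0.82 at 12 h, where vehicle replicate 1 lies. In blood r was 0.57 (rho = 0.55, raw permutation p = 1e-05 for both, adjusted 0.000498 and 0.000398, r = 0.57 without the 2 farthest), with 0.62 at 6 h and 0.53 at 12 h. Il1b and Icam1 varied together in spleen (r = 0.49, rho = 0.42, raw permutation p = 1e-05 and 0.00034, adjusted 0.000498 and 0.00818, r = 0.41 without the 2 farthest) and in blood (r = 0.44, rho = 0.50, raw permutation p = 6e-05 and 1e-05, adjusted 0.00199 and 0.000398, r = 0.39 without the 2 farthest), with positive values at both times.

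The gene whose array-to-array deviations were most like those of a member differed by tissue. Outside the 10, among genes above the tissue median, Nfkbia was nearest to Zc3h12a in jejunum (r = 0.69 over 76 arrays), the gene of the RNase regnase-1, and Tnfaip3 to Nfkb2 (r = 0.66). In spleen and the ILN Nfkbia was nearest to the lymphocyte gene Ptprcap (r = 0.74 in each, over 72 and 73 arrays). Il1b was nearest to Clec4d in spleen and to Ifitm1 in blood (r = 0.86 in each, over 72 and 78 arrays). These likenesses were the highest of many genes and are descriptions.

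Animal numbers were also taken in runs of 12, a length that was assumed and is not given in the sample titles. In such runs vehicle and MEF hold the first 8 places, DMF 179.2 mg/kg and NAIVE the last 8. Place so defined and group are partly confounded. With place as a covariate 22 of the 630 tests were called, and within spans of 4 places shared by both groups 0 of 550 were, with fewer arrays. Calls over all genes moved as well. In the MLN at 12 h they went from 2364 to 1808 and 0 with DMF 179.2 mg/kg, and from 4174 to 3865 and 67 in the NAIVE group. With the covariate they rose from 603 to 1205 in the ILN at 12 h with the combination. So the 0 of 550 is not particular to the members. Spleen Tnfaip3 at 6 h with DMF 179.2 mg/kg was -0.42 with the covariate and -0.38 within shared spans (limma adjusted p = 0.000191 and 0.319).

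**Figure D4:**
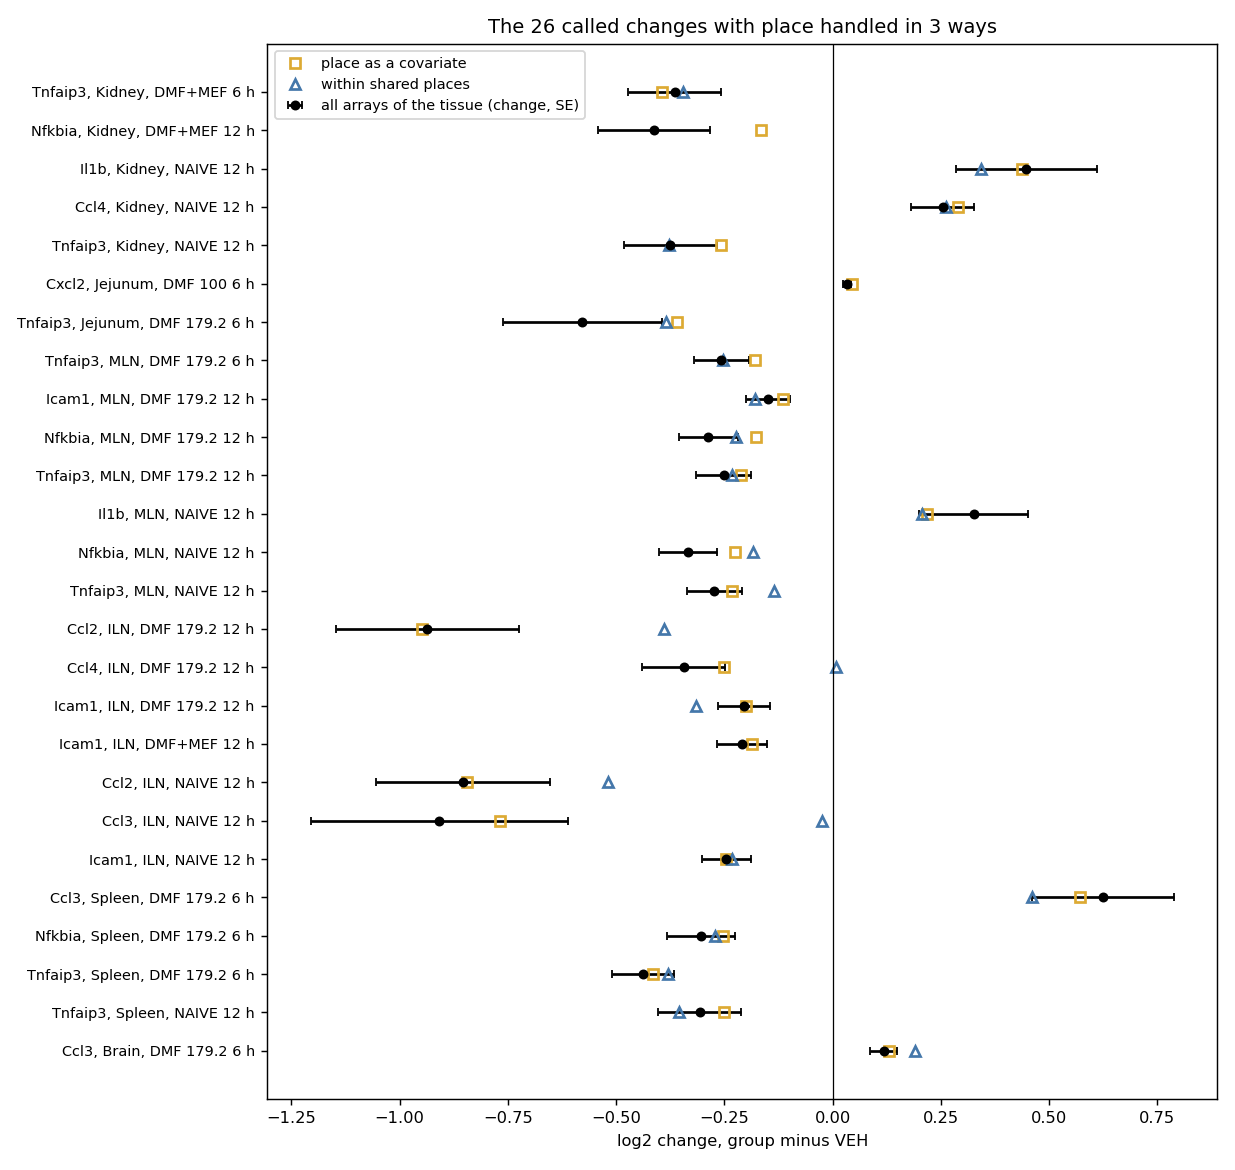
Log2 change of the 26 called tests with all arrays of the tissue (filled points, bars are SE), with place as a covariate (squares) and within shared spans of 4 places (triangles, absent where no span held both groups). Only Ccl4 in the ILN with DMF 179.2 mg/kg crosses 0, at 0.0080 within shared places.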

How the data were processed

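Total RNA of each tissue was hybridised to Affymetrix mouse arrays, 1 array per sample. The authors deposited probe-set summaries on a log2 scale; RMA, GCRMA, R 2.11.1 and limma 3.4.5 are named in the submitters' processing notes, with no role stated. The lower limit differed between sets (2.12 to 2.25), so each tissue and time was taken as normalized on its own. Of 45141 probe sets, 28898 had 1 annotated gene, 551 several and 15588 none, and 104 were controls. The brightest single-gene probe set stood for each of 17097 genes.

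Each tissue was fitted with 1 mean per group in limma 3.58.1 (R 4.3.3), with empirical Bayes and Benjamini-Hochberg adjustment within a comparison; adjusted p below 0.05 was called. The fit was tested on simulated data. Correlations, promoter searches and figures used Python 3.11.15 with pandas 2.3.3, numpy 2.4.6, scipy 1.17.1 and matplotlib 3.10.9. Array number limits the precision, and as the labels do not describe how replicates were housed or processed, p-values measure the spread between these samples.

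The members and lists were chosen with earlier results of these data known. Named were the members, per list and tissue at most 3 called genes of the largest change from vehicle, Nqo1 and Hmox1, and per member and tissue the non-member above the tissue median with the best correlated deviations. Alternatives were a further quantile normalization, median centring, leaving out dim genes, averaging probe sets, another variance model, fitting the compared groups alone, place, and leaving out arrays. Where a call is said to be lost without an array and no adjusted p is given, the gene was refitted without it and its p set against the largest p called with all arrays.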

Additional observations from a re-analysis of the deposited data

Results flagged for a closer look

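Of 46 combinations of a called gene and a group of 4 to 10 arrays, 5 held an array far from the rest. Only groups of called tests were looked at, and a far array can itself make a call, so no chance rate is set beside the 5. The 5 are not independent, since 2 come from the same ILN array. In the ILN at 12 h, vehicle replicate 1 was at 6.92 for Ccl3 with the others at 3.35 to 3.52, and at 6.02 for Ccl4 with the others at 5.06 to 5.18. In kidney, combination replicate 84 was at 4.41 for Tnfaip3 at 6 h with the others at 4.82 to 5.12, and vehicle replicate 4 was at 2.80 for Ccl4 at 12 h with the others at 3.05 to 3.14. In jejunum at 6 h, DMF 100 mg/kg replicate 64 was at 2.28 for Cxcl2 with the other 3 at 2.15.

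The effect of DMF at 179.2 mg/kg differed between times for 2 genes, by the interaction in limma. For Ccl2 in the ILN the effect at 12 h minus that at 6 h was -1.35 (adjusted p = 0.00452). Without vehicle replicate 1 it was -0.89 and no longer called (adjusted p = 0.0671). For Tnfaip3 in spleen the difference was 0.35 (adjusted p = 0.0253).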

How the results depend on the processing

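No paired analysis was possible because no animal number occurs in more than 1 of the groups compared. Of the 26 called tests against vehicle and 9 called differences, a further quantile normalization kept 33, median centring 31, averaged probe sets and the other variance model 35 each, place as a covariate 27 and fitting the compared groups alone 14. Without dim genes 24 of the 24 still tested were kept, and without the arrays that stand apart 13 of 17. Averaging both Tnfaip3 probe sets, of which the other lies near the floor, shrank its changes.

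Counts of called members were 5 in kidney, 2 in jejunum, 7 in the ILN, 4 in spleen, 1 in brain, 2 between times, 5 between doses and 2 against the combination. Median centring gave 9, 5, 12, 9, 5, 8, 18 and 7, with 43 of 46 tests against vehicle lower (93.5% against 76.9%); it moved the median of all genes by over 0.1 in 2 of 63 comparisons, by 0.11 in the ILN and 0.15 in spleen. Leaving out dim genes gave 1 in kidney and 0 in brain, and 95.2% of 21 calls lower. The compared groups alone gave 0 in jejunum, 1 in the ILN, 2 in spleen, 0 in brain, 1 between doses and 1 against the combination, 12 in all with 58.3% lower. Calls over all genes moved as well with groups alone. In the ILN at 12 h they fell from 2110 to 157 with the higher DMF dose. There they also fell from 2485 to 303 in the NAIVE group and from 603 to 0 with the combination. In brain at 6 h with the higher DMF dose they rose from 1231 to 1453. So the counts with groups alone, like those with centring, cannot be read as particular to the members. Within shared places, limma called 0 in kidney, jejunum, MLN, ILN, spleen and brain, and 0 between times, between doses and against the combination. Place as a covariate gave 5 against the combination. Without the arrays that stand apart there were 3 between doses and 1 against the combination. Leaving out single replicates gave 4 to 5 in kidney, 1 to 2 in jejunum, 1 to 10 in the ILN, 3 to 5 in spleen, 0 in blood, 1 to 6 between times, 4 to 6 between doses and 1 to 2 against the combination.

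Cxcl2 in jejunum turned to -0.051 with median centring and ran from 0 (without replicate 64) to 0.045 as single replicates were left out, and Ccl4 in the ILN with DMF 179.2 mg/kg turned to 0.0080 within shared places. Place as a covariate ended the calls of Tnfaip3 in jejunum (-0.36, adjusted p = 0.352), in the MLN at 6 h (-0.18, 0.401) and in untreated spleen (-0.25, 0.0685), of Nfkbia in kidney (-0.17, 0.587), Icam1 in the MLN (-0.11, 0.194), Il1b in the untreated MLN (0.22, 0.185), and Ccl4 (-0.25, 0.11) and Ccl3 (-0.77, 0.0911) in the ILN. The causes were not tested.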
